A study of Homo sapiens with 18 samples.

Results

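The genes described here were 8 transcripts taken from the top of rankings of hypoxic induction in these same libraries: ACAP1, ANKRD37, SPAG4, TMEM45A, PPFIA4, C1QL1, FAM115C and FAM162A. They are 8 of the 23106 gene symbols in each count table, and all 8 were found in every table. Their hypoxic induction is therefore what chose them, so their changes between normoxia and hypoxia are given as descriptions, with no p and with calls counted only beside the share of all genes called. Their normoxic levels are described in the same way, since normoxic samples are the denominator of every fold change. The hypoxic responses of their paralogues, chromosomal neighbours and partner proteins, which the choice of members did not use, were tested. These lists were drawn up with earlier results of these data known.

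Hypoxia stabilises the α-subunits of hypoxia-inducible factor (HIF), which pair with HIF-1β, bind short DNA motifs near target genes and raise the transcription of genes for glycolysis, angiogenesis, pH control and mitochondrial adaptation. In normoxia, prolyl hydroxylation marks HIF-α for capture by the von Hippel-Lindau (VHL) protein and for destruction. The 8 genes were grouped for a hypoxic role that is little known, although FAM162A has been tied to cell death in hypoxia. They encode proteins of the nuclear envelope, cell membranes, cell cortex, endosomes, mitochondria and the extracellular space.

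PolyA-selected RNA was sequenced from 3 human cell lines: HKC-8, derived from renal tubule, RCC4, from a renal carcinoma, and HepG2, from a liver carcinoma. There were 3 normoxic and 3 hypoxic samples of each line, 18 in all. In such bulk samples, fewer cells holding a transcript and less of it per cell cannot be told apart. By the labels, hypoxia was 0.5% oxygen for 16 h in HKC-8 and HepG2 cells and 1% for 24 h in RCC4 cells, although sample titles give 0.1% for hypoxic HKC-8 cells and a figure legend of the study gives 0.5% for 16 h for every line. Titles of the normoxic HKC-8 samples give 21% oxygen. All RCC4 samples, normoxic and hypoxic, carried VHL; the parental line has lost it and was stably transfected with the wild-type gene. Nothing in the labels says that replicates were separate cultures, so p-values measure the spread between these samples, which may be technical. Responses of RCC4 cells are set beside those of the other lines without a comparison, because oxygen and duration differ by the labels. Cell line also cannot be told apart from depth: total counts ran from 75441764 to 97984260 in HKC-8 samples, which were spread over more than 1 lane, and from 40915980 to 51794355 in the others. Of 8 hepatocyte markers, all 8 exceeded 1 CPM (counts scaled to a library size of 1e+06) in HepG2 cells. Of 8 renal markers, 6 exceeded it in RCC4 cells and 3 in both HKC-8 and HepG2 cells. In HKC-8 cells, LRP2, the proximal tubule receptor megalin, had no counts in normoxia and PAX8 was at 165 CPM.

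Promoter windows show where the motif bound by HIF, ACGTG or GCGTG on either strand, lies near the starts of these genes. Each window runs from 250 bases before to 50 bases after an annotated start, comes from RefSeq in the build GRCh38.p14 and is printed 5′ to 3′ on the strand of the gene, with motif matches in capitals. Entries matched ANKRD37, TMEM45A, PPFIA4, FAM162A and, under its current symbol TCAF2, FAM115C. Of 35116 promoters in the same reference, 48.4% held at least 1 match to either form, 23.1% at least 2 and 10.1% at least 3. The ANKRD37 window (chr4:185396591-185396890, plus strand), the PPFIA4 window (chr1:203026241-203026540, plus strand) and the FAM162A window (chr3:122383932-122384231, plus strand) are shown because they held the most matches, and the TMEM45A window (chr3:100492369-100492668, plus strand) because it held none.
ANKRD37: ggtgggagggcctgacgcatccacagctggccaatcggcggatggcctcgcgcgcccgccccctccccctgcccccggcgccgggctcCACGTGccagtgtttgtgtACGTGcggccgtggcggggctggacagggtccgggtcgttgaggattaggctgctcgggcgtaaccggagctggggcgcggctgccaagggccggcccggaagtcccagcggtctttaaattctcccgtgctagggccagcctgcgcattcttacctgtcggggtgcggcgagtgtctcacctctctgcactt
PPFIA4: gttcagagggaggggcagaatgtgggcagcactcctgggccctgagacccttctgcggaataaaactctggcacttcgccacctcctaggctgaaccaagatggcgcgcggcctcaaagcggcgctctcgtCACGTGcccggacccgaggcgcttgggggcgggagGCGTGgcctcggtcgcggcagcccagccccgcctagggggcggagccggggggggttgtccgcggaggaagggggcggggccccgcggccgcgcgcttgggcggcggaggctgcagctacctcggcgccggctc
FAM162A: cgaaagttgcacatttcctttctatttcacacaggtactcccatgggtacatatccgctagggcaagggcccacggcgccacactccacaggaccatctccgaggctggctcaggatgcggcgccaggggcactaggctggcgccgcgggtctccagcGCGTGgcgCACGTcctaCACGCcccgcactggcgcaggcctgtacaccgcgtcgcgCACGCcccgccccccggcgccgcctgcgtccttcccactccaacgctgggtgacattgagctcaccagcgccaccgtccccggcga
TMEM45A: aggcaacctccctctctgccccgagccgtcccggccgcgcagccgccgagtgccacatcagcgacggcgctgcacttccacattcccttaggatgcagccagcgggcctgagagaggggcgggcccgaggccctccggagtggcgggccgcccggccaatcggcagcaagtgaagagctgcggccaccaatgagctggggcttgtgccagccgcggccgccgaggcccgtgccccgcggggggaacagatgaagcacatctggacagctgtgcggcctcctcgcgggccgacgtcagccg
The ANKRD37 window held 3 matches, centred at -160, -159 and -141 from the start. The first pair share 1 palindrome, CACGTG, read once on each strand. PPFIA4 likewise had 3 matches, with a palindrome centred at -117 and -116 and a GCGTG at -82. In FAM162A there were 4, centred from -90 to -34. FAM115C had 2 annotated windows, of which 1 held no match and the other a single GCGTG. A match is a sequence of letters, and no binding was measured in these data.

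In all 3 lines, every hypoxic sample of 7 genes lay above every normoxic one, and for C1QL1 this held in the 2 kidney lines. The share of all genes that separated in this way is not given here. By a call rule of an adjusted p under 0.05 (edgeR's quasi-likelihood test with Benjamini-Hochberg adjustment over all genes tested), 8 of 8 members were called induced for HKC-8, 8 of 8 for RCC4 and 7 of 7 for HepG2. Over all genes tested, the same rule called as induced 11.2% of 13536 HKC-8 genes, 25.9% of 12811 RCC4 genes and 19.9% of 13623 HepG2 genes. The members were selected on this contrast, so nothing is read from either count. In HepG2 cells C1QL1 fell below the low-count filter. The median log2 fold change of the members tested was 3.12 for HKC-8, 2.49 for RCC4 and 3.12 for HepG2, where the medians of all genes tested were 0.0036, -0.0018 and -0.0044. For scale, the medians of 12 well-known HIF targets, of which 12, 10 and 12 were tested, were 1.86, 2.14 and 2.60. That list ran from ALDOC (1.03) to CA9 (4.92) in HKC-8, from VEGFA (0.87) to NDRG1 (3.74) in RCC4 and from SLC2A1 (0.90) to CA9 (8.45) in HepG2 cells.

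**Figure D1:**
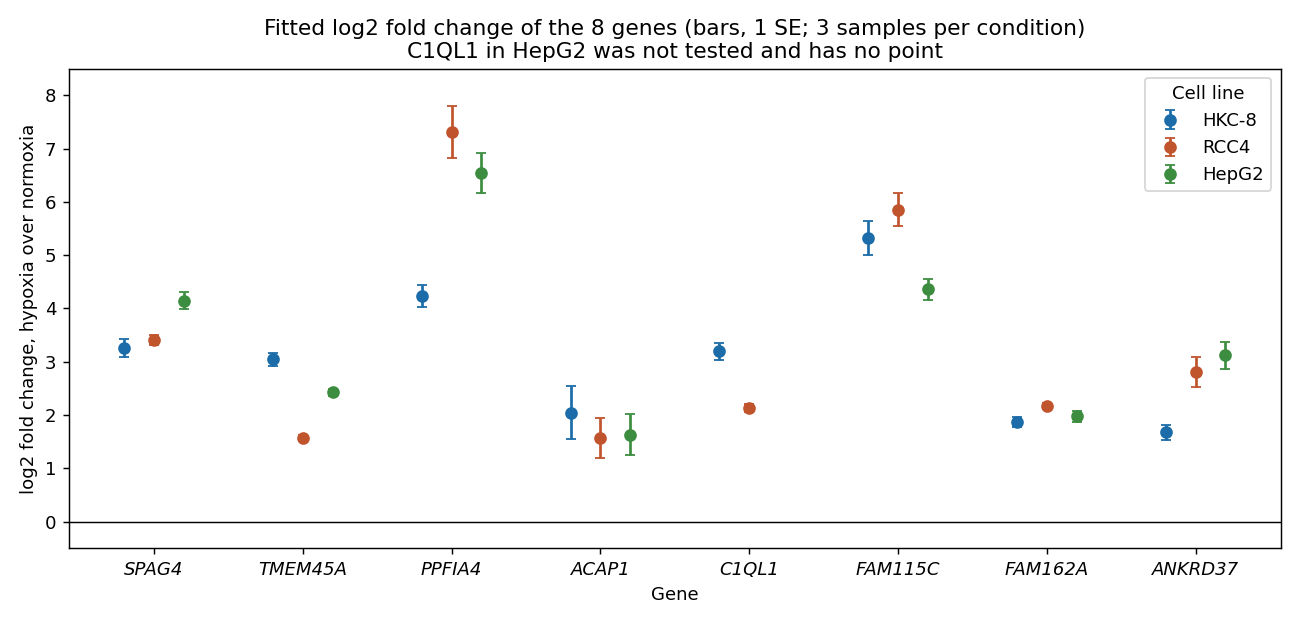
Log2 fold change of hypoxic over normoxic samples (y axis) for each of the 8 genes (x axis), coloured by cell line, with bars of 1 standard error from edgeR. PPFIA4 lies highest in RCC4 (7.31) and HepG2 (6.54) and FAM115C in HKC-8 (5.32), while FAM162A stays between 1.87 and 2.17 in all 3 lines.

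The rankings combined fold change and p, and the members did not stand equally high on them. On the product of DESeq2's log2 fold change and −log10 p, PPFIA4 ranked 3, TMEM45A 5, FAM115C 8, C1QL1 10 and SPAG4 11 in HKC-8 cells. SPAG4 ranked 19 in RCC4 and 16 in HepG2, the highest of the members in both. At the other end, ACAP1 ranked 670, 837 and 998 in the 3 lines, although its fold change alone ranked 158, 101 and 260. Among the first 100 genes stood 7 members for HKC-8, 6 for RCC4 and 5 for HepG2, of 13536, 12811 and 13623 genes tested. The top of such rankings chose the members, so nothing is read from these counts.

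SPAG4 encodes a SUN-domain protein of the inner nuclear envelope, best known from spermatids, where such proteins couple the nucleus to the cytoskeleton (chromosome 20, 34203751 to 34209016 in GRCh37). In HKC-8 cells it stood at 1.62, 1.15 and 1.29 CPM in normoxia and at 12.3, 12.3 and 13.9 CPM in hypoxia. The RCC4 samples held 2.41, 2.74 and 2.13 CPM and then 25.6, 26.8 and 25.0 CPM. HepG2 cells went from 2.36, 2.95 and 1.53 to 42.7, 40.1 and 39.1 CPM. No hypoxic sample of any line came within reach of a normoxic one, and the hypoxic levels of the 3 lines did not overlap either. Log2 fold changes were 3.25 (standard error, SE, 0.17), 3.41 (SE 0.09) and 4.15 (SE 0.15) for HKC-8, RCC4 and HepG2. Of 5 testis markers, all were at 0 in the kidney lines, and their sum was at most 0.068 CPM in HepG2 cells.

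TMEM45A encodes a multi-pass membrane protein known mainly from keratinocytes (chromosome 3, 100211463 to 100296288). Its 3 normoxic and 3 hypoxic HKC-8 samples stood at 4.57, 4.21 and 5.17 and at 38.4, 34.9 and 41.5 CPM. RCC4 cells already held 27.4, 27.3 and 28.9 CPM in normoxia and reached 79.6, 79.2 and 88.5 CPM. The HepG2 values were 14.8, 14.8 and 15 against 81.8, 80.7 and 77.5 CPM. Hypoxic RCC4 and HepG2 samples overlapped, whereas their normoxic samples did not. Log2 fold changes were 3.04 (SE 0.12), 1.57 (SE 0.05) and 2.43 (SE 0.07) for HKC-8, RCC4 and HepG2, while the hypoxic level was lowest in HKC-8.

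PPFIA4 encodes liprin-α4, a scaffold of the cell cortex that binds LAR-type receptor tyrosine phosphatases (chromosome 1, 202995619 to 203047868). HKC-8 samples held 1.75, 1.42 and 2.47 CPM in normoxia and 39.1, 31.1 and 36.2 CPM in hypoxia, a log2 fold change of 4.24 (SE 0.20). In RCC4 cells the normoxic samples held 0, 2 and 0 counts and the hypoxic ones 121, 129 and 133 counts. For HepG2 the counts were 3, 0 and 4 against 232, 276 and 163. The gene was thus near the limit of detection in 2 normoxic lines and clearly present in the third. Pooled over the 3 replicates, the hypoxic to normoxic ratio of CPM was 178 in RCC4 cells (95% exact interval 48.9 to 1470, counting error only) and 92.7 in HepG2 cells (44.7 to 231). The fitted log2 fold changes of 7.31 (SE 0.48) and 6.54 (SE 0.38) rest on these few normoxic counts. Without RCC4 normoxia replicate 2, which held both counts, the fitted value in RCC4 was 9.97. Hypoxic levels ran the other way, with means of 35.5 CPM for HKC-8, 5.24 for HepG2 and 2.61 for RCC4 and no overlap between them.

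ACAP1 encodes a GTPase-activating protein for ARF6 that takes part in endosomal recycling and is abundant in lymphocytes (chromosome 17, 7239848 to 7254796). Per kb of exon, its mean CPM was the lowest of the members in hypoxic cells of all 3 lines. HKC-8 samples held 3, 4 and 5 counts in normoxia and 11, 24 and 17 counts in hypoxia. The counts in RCC4 were 14, 11 and 12 and then 39, 43 and 31, and in HepG2 10, 8 and 5 and then 21, 28 and 21. Within each line the 2 conditions did not overlap, but every value was small. Its pooled ratio of CPM was 4.28 for HKC-8 (95% exact interval 2.25 to 8.80), 2.83 for RCC4 (1.94 to 4.23) and 2.94 for HepG2 (1.81 to 4.94). In HKC-8 cells the log2 fold change was 2.05, and it was 1.85 to 2.08 in the fits without normoxia replicates 1 or 2 or hypoxia replicates 2 or 3, in which ACAP1 no longer met the call rule. Of 6 lymphoid markers, CD3E was at 0 in every group, PTPRC was at 0 in RCC4 and HepG2 cells, and the summed level was at most 0.727 CPM in the kidney lines. In HepG2 cells that sum ran from 5.30 to 6.64 CPM in normoxia and from 9.57 to 11.1 CPM in hypoxia, mostly LCK (means 4.33 and 8.49 CPM), and its part in the ACAP1 values was not tested.

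**Figure D2:**
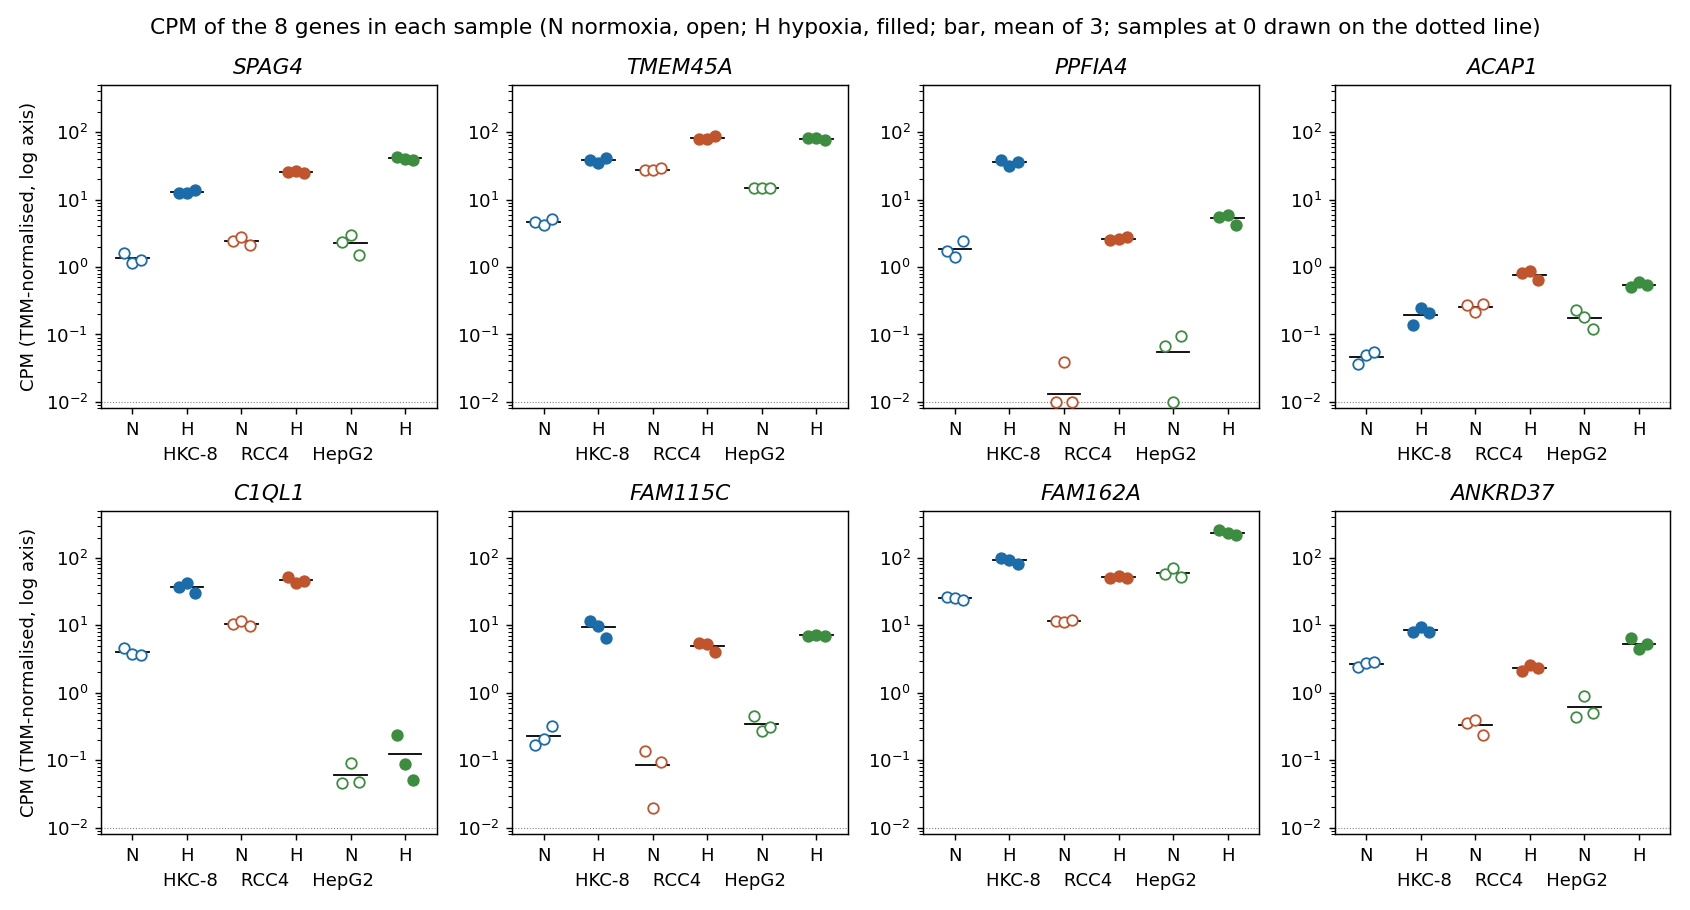
CPM of each gene (y axis, log scale) in all 18 samples, with open points for normoxia (N), filled points for hypoxia (H) and a bar at the mean of 3. Hypoxic points lie above every normoxic point of the same line in all panels except C1QL1 in HepG2 cells, where both conditions lie at or below 0.238 CPM.

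C1QL1 encodes a secreted protein of the C1q family that organises synapses and binds the adhesion receptor BAI3 (chromosome 17, 43037061 to 43045671). HKC-8 cells held 4.62, 3.71 and 3.63 CPM in normoxia and 36.5, 42.2 and 30.5 CPM in hypoxia (log2 fold change 3.20, SE 0.16). In RCC4 cells the samples went from 10.6, 11.4 and 9.90 to 51.8, 42.5 and 44.6 CPM (log2 fold change 2.12, SE 0.07). The HepG2 samples held 2, 4 and 2 counts in normoxia and 10, 4 and 2 in hypoxia. These HepG2 conditions overlapped, and the pooled ratio was 1.93 with a 95% exact interval of 0.781 to 5.22, so induction was not detectable at this depth. The span of NMT1 holds it on the opposite strand, and reads within exons of both genes, if any overlap, may have been left uncounted. Of 6 neuronal markers, 1 exceeded 1 CPM in each group (SNAP25 in the kidney lines, SYP in HepG2), and the summed level stayed at or below 3.32 CPM.

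FAM115C, now named TCAF2, encodes a partner of the cold-sensing channel TRPM8 (chromosome 7, 143318045 to 143427503). In HKC-8 cells the counts were 14, 17 and 29 in normoxia and 936, 970 and 528 in hypoxia. RCC4 samples held 7, 1 and 4 counts and then 267, 263 and 196, and HepG2 samples 20, 12 and 13 and then 295, 336 and 272. The normoxic samples of all 3 lines were thus below 0.46 CPM and the hypoxic ones above 4. Log2 fold changes were 5.32 (SE 0.32), 5.85 (SE 0.31) and 4.36 (SE 0.20) in HKC-8, RCC4 and HepG2 cells. The locus lies in a duplicated stretch that also holds TCAF2C and a pseudogene in GENCODE, and fragments mapping to more than 1 place had been removed, so the counts of FAM115C are uncertain to that extent.

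FAM162A encodes a mitochondrial protein that binds the voltage-dependent anion channel and has been tied to cell death in hypoxia (chromosome 3, 122103008 to 122131181). HKC-8 samples stood at 25.9, 25.8 and 23.9 CPM and then at 99.8, 93.7 and 81.7 CPM. In RCC4 cells they stood at 11.4, 11.2 and 11.8 CPM and then at 50.4, 54.0 and 49.9 CPM. HepG2 cells held 58.4, 69.6 and 52.2 CPM in normoxia and 257, 236 and 218 CPM in hypoxia. WDR5B overlaps the gene on the opposite strand. Log2 fold changes were 1.87 (SE 0.09), 2.17 (SE 0.06) and 1.98 (SE 0.10), the narrowest span of any member tested in all 3 lines. Normoxic HepG2 samples (52.2 to 69.6 CPM) overlapped with hypoxic RCC4 samples (49.9 to 54.0 CPM).

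ANKRD37 encodes a small protein made largely of ankyrin repeats that binds the E3 ligase adaptor FEM1B and its relatives (chromosome 4, 186317175 to 186321782). It was at 2.45, 2.80 and 2.83 CPM in normoxic and 8.06, 9.50 and 8.09 CPM in hypoxic HKC-8 cells. The RCC4 values were 0.356, 0.397 and 0.234 CPM against 2.08, 2.54 and 2.36 CPM. For HepG2 they were 0.431, 0.895 and 0.501 CPM against 6.48, 4.43 and 5.20 CPM. Hypoxic RCC4 samples only reached the range of normoxic HKC-8 samples (2.45 to 2.83 CPM). The log2 fold changes were 1.67 (SE 0.14), 2.80 (SE 0.28) and 3.12 (SE 0.25). UFSP2, which lies on the opposite strand, overlaps the last part of the gene, and with intersection-strict counting reads there could be left uncounted.

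Between HKC-8 and HepG2 cells, the log2 fold changes differed in both directions. Both lines share oxygen and duration by the labels, but titles of hypoxic HKC-8 samples give 0.1% oxygen, and depth differed too. HepG2 was higher by 2.30 for PPFIA4 (SE of the difference 0.43), 1.45 for ANKRD37 (SE 0.29) and 0.89 for SPAG4 (SE 0.23). HKC-8 was higher for FAM115C, with a difference of -0.96 as HepG2 minus HKC-8 (SE 0.37), and for TMEM45A, with -0.61 (SE 0.14). For ACAP1 (-0.41, SE 0.63) and FAM162A (0.11, SE 0.14) the difference was no larger than its SE. These are descriptions, since the members were selected on the same samples.

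Levels of different genes are comparable only per length, here CPM per kb of GENCODE exon, which need not match the gene models the authors counted on. On that scale, C1QL1 was the most abundant member in hypoxic HKC-8 (23.9 ± 3.85 CPM per kb, SD, n = 3) and hypoxic RCC4 cells (30.3 ± 3.19) and among the scarcest in hypoxic HepG2 cells (0.0822 ± 0.0648). First place in the kidney lines rests on exon lengths of 1527 bases for C1QL1 and 11604 for FAM162A, all annotated exons joined. By CPM alone, FAM162A exceeded C1QL1 in hypoxic HKC-8 (means 91.7 against 36.4) and hypoxic RCC4 cells (51.4 against 46.3). FAM162A at 20.4 ± 1.70 and SPAG4 at 17.3 ± 0.786 CPM per kb led in hypoxic HepG2 cells. ACAP1 stayed at or below 0.104 CPM per kb in all 6 groups. Fold change and final level therefore ran apart: PPFIA4, with the highest fold change in RCC4, reached only 0.269 ± 0.0135 CPM per kb there.

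**Figure D3:**
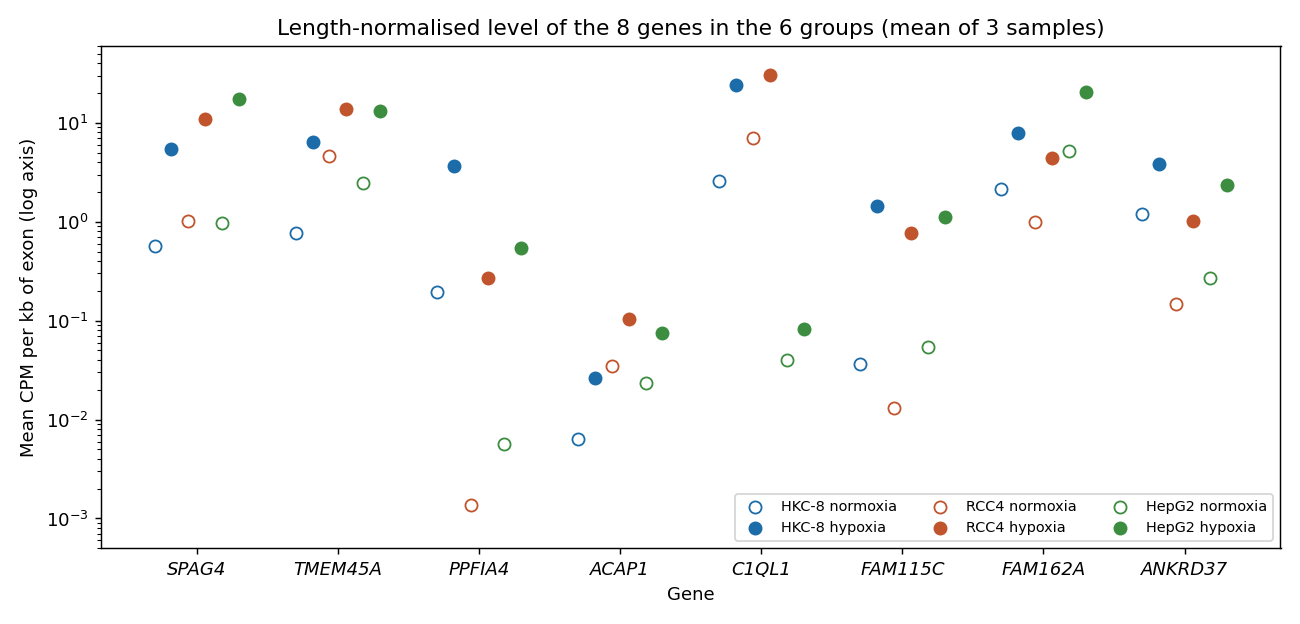
Mean CPM per kb of exon (y axis, log scale) of each gene in the 6 groups, with open points for normoxia and filled points for hypoxia, means of 3 samples. C1QL1 spans from 0.0399 in normoxic HepG2 to 30.3 in hypoxic RCC4 cells, and PPFIA4 from 0.00136 in normoxic RCC4 to 3.65 in hypoxic HKC-8 cells.

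Normoxic levels were set side by side in 1 edgeR fit of the 9 normoxic samples, with a call at an adjusted p under 0.05 and at least 2-fold. The 3 contrasts share samples with each other, and no p is given for the members, because the fold changes that chose them also used these samples. Against HKC-8, 7 of 8 members were called in RCC4 (3 higher, 4 lower) and 6 of 8 in HepG2 (3 higher, 3 lower). HepG2 against RCC4 gave 3 of 8 (2 higher, 1 lower). Over all 14806 genes the same rule called 46.4%, 47.1% and 49.7%, respectively, so differences between lines were common among genes at large.

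The kidney and liver lines did not separate the members in a single order. PPFIA4 was far higher in normoxic HKC-8 cells than elsewhere: pooled CPM was 138 times that of RCC4 (95% exact interval 38.0 to 1140) and 36.1 times that of HepG2 (17.4 to 90.3). ANKRD37 was also highest in HKC-8, with log2 differences of -3.00 (SE 0.30) for RCC4 and -2.11 (SE 0.28) for HepG2. TMEM45A was the reverse, 2.59 (SE 0.10) higher in RCC4 and 1.69 (SE 0.10) higher in HepG2 than in HKC-8 on the log2 scale. ACAP1 was higher in both as well, by 2.42 (SE 0.45) and 1.88 (SE 0.49).

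C1QL1 was found mainly in the kidney lines, with 1016 counts over the normoxic HKC-8 samples, 1535 over RCC4 and 8 over HepG2. Pooled CPM was 66.1 times (95% exact interval 33.4 to 153) higher in HKC-8 and 176 times (89.0 to 408) higher in RCC4 than in HepG2, and RCC4 exceeded HKC-8 by 1.43 on the log2 scale (SE 0.15). FAM162A was lowest in RCC4 and highest in HepG2, with log2 differences from HKC-8 of -1.12 (SE 0.10) and 1.27 (SE 0.10). FAM115C was lowest in RCC4, with log2 differences of 2.02 (SE 0.56) for HepG2 against RCC4 and -1.45 (SE 0.55) for RCC4 against HKC-8. The latter no longer met the call rule without HKC-8 normoxia replicate 3 (-1.16), RCC4 normoxia replicate 2 (-0.97) or RCC4 normoxia replicate 3 (-1.52), or with DESeq2 (-1.42). SPAG4 was the one member with no contrast of 2-fold or more, and HepG2 and RCC4 differed by -0.08 (SE 0.25).

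**Figure D4:**
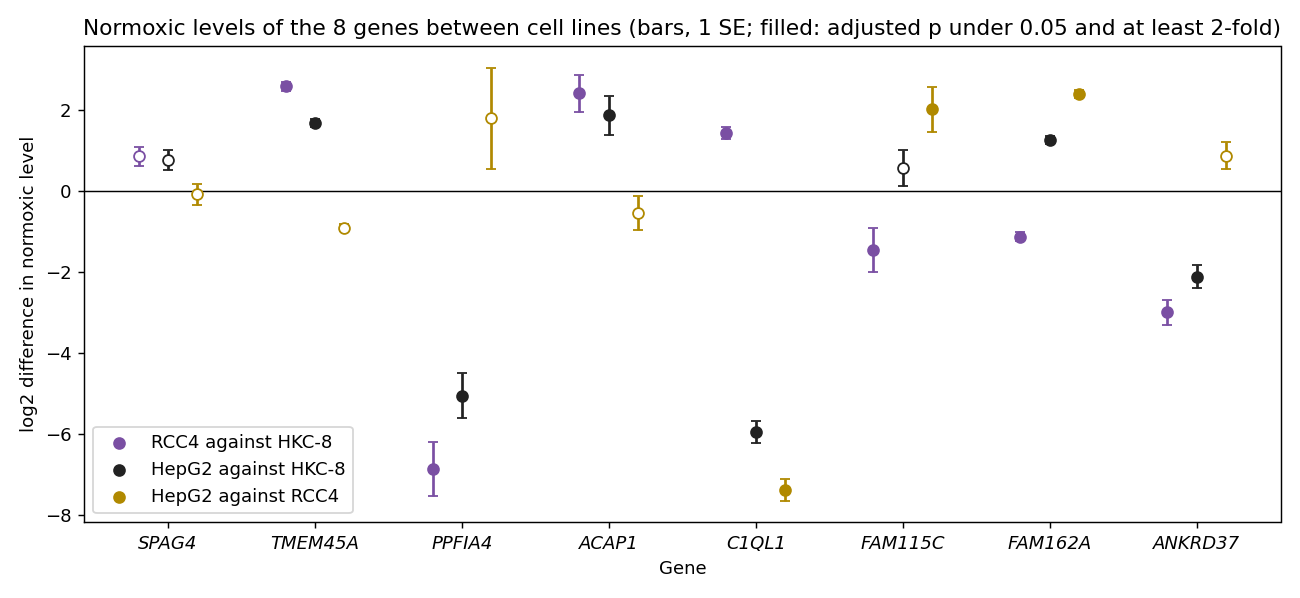
Log2 difference in normoxic level between cell lines (y axis) for each gene (x axis), with bars of 1 SE, filled where adjusted p was under 0.05 and the difference at least 2-fold. PPFIA4 lies near -6.87 and -5.06 against HKC-8, C1QL1 near -5.96 and -7.39 in HepG2, and all 3 SPAG4 points lie between -0.08 and 0.86.

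Neighbours, the 2 counted protein-coding genes on either side of each member and any that overlapped it, were tested for the hypoxic contrast. Of 32, 25 were tested in HKC-8 (2 induced, 4 repressed), 23 in RCC4 (9 induced, 7 repressed) and 24 in HepG2 cells (6 induced, 7 repressed). The background of repressed genes was 9.12%, 24.2% and 19.2% in the 3 lines. The median log2 fold change of the neighbours was -0.03 in every line. With the replicate number as a block, which the HKC-8 samples support, 4 neighbours were induced and 9 repressed in that line, against 21% and 21.6% of all genes.

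KCTD11, an adaptor of a ubiquitin ligase, starts 412 bases beyond the end of ACAP1 on the same strand and was called in all 3 lines. It stood at 11.3, 10.8 and 12.3 CPM in normoxic and 31.0, 32.4 and 31.5 CPM in hypoxic HKC-8 cells (log2 fold change 1.47, SE 0.10, edgeR adjusted p = 2.79e-05). In RCC4 cells it went from 11.9, 10.5 and 12.2 to 44.1, 40.4 and 35.8 CPM (1.80, SE 0.08, edgeR adjusted p = 3.22e-15). HepG2 cells held 1.79, 2.13 and 2.08 and then 15.4, 12.7 and 15.9 CPM (2.87, SE 0.13, edgeR adjusted p = 2.17e-09). Its counts exceeded those of ACAP1 in every sample, and whether transcripts of 1 gene contribute to the counts of the other was not tested.

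C4orf47, which lies 25621 bases from ANKRD37, was induced in HKC-8 (2.63, SE 0.39, edgeR adjusted p = 0.00285) and HepG2 cells (4.43, SE 0.55, edgeR adjusted p = 3.45e-05). Its counts were 21, 8 and 20 against 114, 82 and 108 in HKC-8 and 4, 0 and 1 against 38, 43 and 31 in HepG2 cells. In RCC4 it was not tested, with 0, 1 and 1 counts in normoxia and 0, 3 and 4 in hypoxia. LRP2BP lies only 97 bases from ANKRD37 on the opposite strand, with the starts of both genes facing away from each other. It rose by 0.89 on the log2 scale in RCC4 (SE 0.35, edgeR adjusted p = 0.0371) and 0.81 in HepG2 cells (SE 0.24, edgeR adjusted p = 0.0177), with 0.38 (SE 0.16, edgeR adjusted p = 0.122) in HKC-8. Both LRP2BP calls were lost in some fits with 1 sample fewer, in RCC4 without any 1 of normoxia replicates 1 and 3 and the 3 hypoxia replicates (edgeR adjusted p up to 0.165) and in HepG2 without normoxia replicate 2 or hypoxia replicates 1 or 2 (up to 0.0723).

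ADORA1, an adenosine receptor gene 11914 bases from PPFIA4, fell in RCC4 cells from 79.8, 91.9 and 84.7 to 52.6, 54.4 and 51.9 CPM (-0.68, SE 0.05, edgeR adjusted p = 5.46e-11). In HKC-8 cells its value was 0.01 (SE 0.20, edgeR adjusted p = 0.978). The 4 neighbours repressed in HKC-8, named after their values were seen, were CYB5R1, TOMM70A, KPNA1 and RBM12. Their edgeR adjusted p were 0.017, 0.00532, 0.0293 and 0.05, the last under the threshold only before rounding. CYB5R1 and KPNA1 were also repressed in RCC4 (edgeR adjusted p = 0.00929 and 0.000632) and HepG2 cells (0.00151 and 0.0129). TOMM70A and RBM12 were called in neither. The neighbours of SPAG4 and TMEM45A gave no call in RCC4 or HepG2 cells.

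Paralogues were examined in the same way. Of 21, 12 were tested in HKC-8 (1 induced, none repressed), 12 in RCC4 (5 induced, 2 repressed) and 13 in HepG2 cells (8 induced, none repressed). Over all genes, 11.2% were induced and 9.12% repressed in HKC-8, 25.9% and 24.2% in RCC4, and 19.9% and 19.2% in HepG2 cells. The median log2 fold changes of the paralogues were 0.27, -0.02 and 0.39. The HKC-8 call was SUN1, a widely expressed relative of SPAG4 named after its values were seen (0.32, SE 0.08, edgeR adjusted p = 0.0225). No paralogue was called there without normoxia replicates 1 or 2 or hypoxia replicates 1 or 3. SUN1 was also called in RCC4 (0.27, SE 0.04, edgeR adjusted p = 3.61e-06) and HepG2 cells (0.39, SE 0.07, edgeR adjusted p = 0.000638). With the replicate block, 4 paralogues were induced and 1 repressed in HKC-8, against 21% and 21.6% of all genes.

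Called changes of at least 2-fold among paralogues were 3, all in HepG2 cells. TMEM45B went from 42.0, 41.0 and 34.1 to 118, 108 and 111 CPM (1.52, SE 0.08, edgeR adjusted p = 7.34e-09), and was not tested in the kidney lines, where no sample exceeded 0.166 CPM. HepG2 cells thus held both TMEM45 genes. C1QL3, a close relative of C1QL1, rose from 0, 2 and 3 counts to 23, 21 and 36 counts (3.96, SE 0.63, edgeR adjusted p = 0.000263) in the line where C1QL1 was hardly detected. In HKC-8 cells C1QL3 was at 1.71, 1.54 and 1.90 against 2.32, 2.59 and 2.77 CPM (0.58, SE 0.18, edgeR adjusted p = 0.0511), and passed with the replicate block (edgeR adjusted p = 0.0161). CBLN3, of the related cerebellin family, rose in HepG2 from 0.725, 0.627 and 0.955 to 1.64, 1.82 and 1.73 CPM (1.17, SE 0.23, edgeR adjusted p = 0.00151).

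In the liprin family, PPFIBP2 rose in HepG2 cells (0.83, SE 0.07, edgeR adjusted p = 1.13e-06) from 19, 17.3 and 17.9 to 32.2, 32.1 and 32.0 CPM. PPFIBP1, the paralogue of PPFIA4 with the highest normoxic CPM averaged over the 3 lines, rose by 0.22 in RCC4 (SE 0.03, edgeR adjusted p = 1.46e-05) and passed in neither of the other lines. SUN2, likewise the highest paralogue of SPAG4 by that average, rose by 0.19 in RCC4 (SE 0.05, edgeR adjusted p = 0.0014) and 0.68 in HepG2 cells (SE 0.06, edgeR adjusted p = 2.81e-06). FAM115A, the paralogue and neighbour of FAM115C, rose by 0.38 in RCC4 (SE 0.05, edgeR adjusted p = 2.34e-06) and 0.33 in HepG2 cells (SE 0.07, edgeR adjusted p = 0.0025). In HKC-8 cells it was at 0.22 (SE 0.14, edgeR adjusted p = 0.304), which passed with the replicate block (edgeR adjusted p = 0.0172). ACAP2, of the same ARF6 regulator family as ACAP1, was at -0.18 (SE 0.09, edgeR adjusted p = 0.172) in HKC-8, where it was the repressed paralogue with the replicate block (edgeR adjusted p = 0.0362), and rose by 0.22 in RCC4 cells (SE 0.05, edgeR adjusted p = 0.000383). FAM162B was close to undetected, with at most 0.0477 CPM in any sample. CBLN2 fell in RCC4 (-0.83, SE 0.30, edgeR adjusted p = 0.0257), a call lost without normoxia replicates 2 or 3 or hypoxia replicates 1 or 3 (edgeR adjusted p up to 0.12) and in 1 fit of all 18 samples (0.113). That fit also lost the RCC4 calls of ACAP2 (0.0607) and SUN2 (0.0902).

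**Figure D5:**
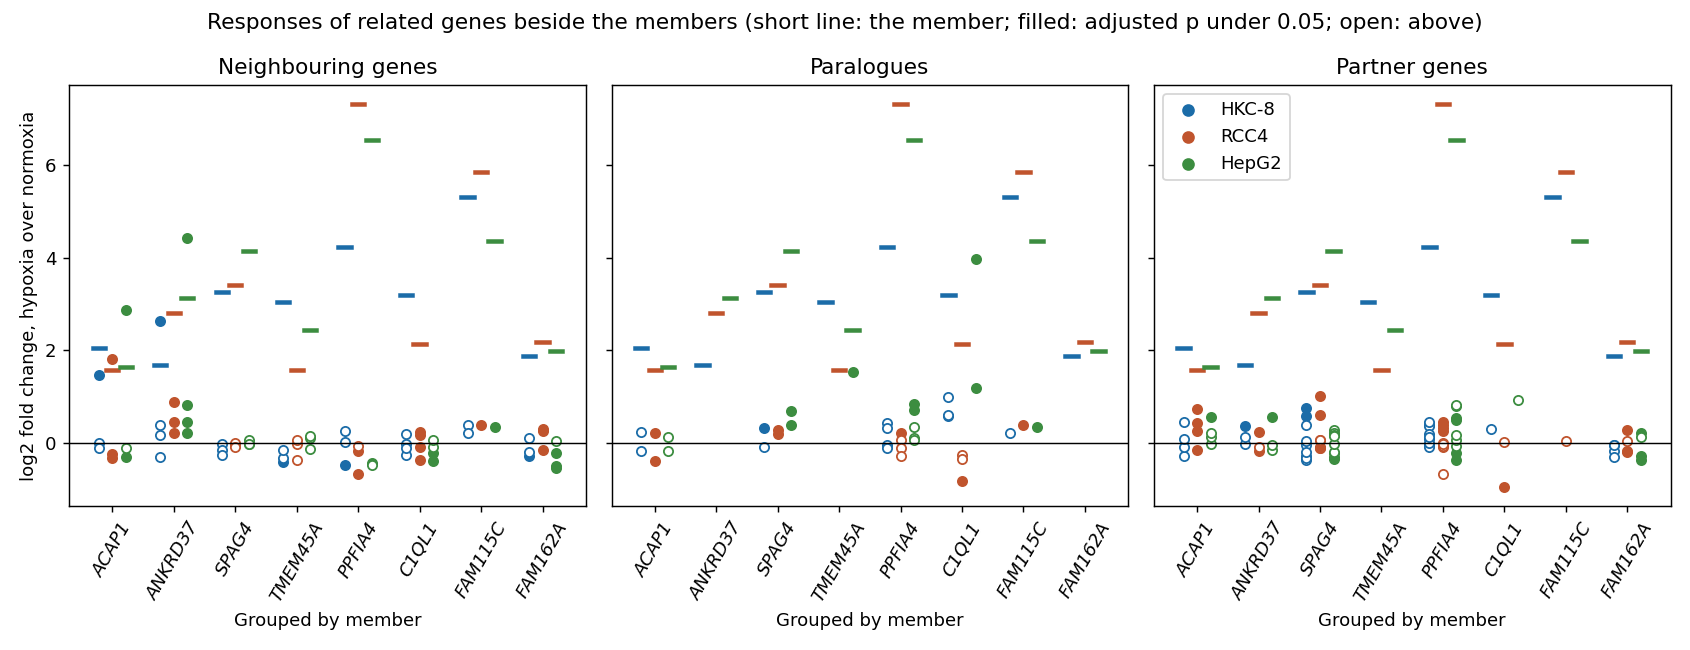
Log2 fold change of hypoxic over normoxic samples (y axis) for neighbours, paralogues and partners, grouped by the member they belong to (x axis) and coloured by cell line, filled at an adjusted p under 0.05 and open otherwise, with a short line at the member's own value. Most related genes lie within 1 of 0. KCTD11 beside ACAP1 and C4orf47 beside ANKRD37 lie above the member in at least 1 line, and C1QL3 reaches 3.96 in HepG2, where C1QL1 has no fitted value.

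Genes for known partner proteins gave a mixed picture. Of 37, 30 were tested in each line, with 3 induced and 1 repressed in HKC-8, 11 and 8 in RCC4 and 6 and 7 in HepG2 cells, and medians of 0.02, 0.02 and 0.13. The shares of all genes induced and repressed were again 11.2% and 9.12%, 25.9% and 24.2%, and 19.9% and 19.2%. With the replicate block, 7 were induced and 6 repressed in HKC-8, against 21% and 21.6% of all genes. The nesprins SYNE1 and SYNE2, which join SUN proteins across the nuclear envelope, rose in both kidney lines. SYNE1 went from 4.66, 4.08 and 4.64 to 7.90, 6.97 and 7.54 CPM in HKC-8 (0.75, SE 0.13, edgeR adjusted p = 0.00608) and rose by 0.60 in RCC4 cells (SE 0.11, edgeR adjusted p = 7.26e-05). SYNE2 went from 16.6, 14.9 and 19 to 42.0, 30.0 and 29.7 CPM in RCC4 (1.02, SE 0.10, edgeR adjusted p = 1.78e-08) and rose by 0.57 in HKC-8 cells (SE 0.11, edgeR adjusted p = 0.00715). In HepG2 cells neither passed, at -0.20 (SE 0.10, edgeR adjusted p = 0.132) and 0.28 (SE 0.12, edgeR adjusted p = 0.0699). The nesprins SYNE3 and SYNE4, named after their values were seen, were not tested in RCC4. SYNE3 passed in neither HKC-8 (0.39, SE 0.19, edgeR adjusted p = 0.171) nor HepG2 cells (0.20, SE 0.13, edgeR adjusted p = 0.236). SYNE4 was at -0.37 in HKC-8 (SE 0.49, edgeR adjusted p = 0.631) and was repressed in HepG2 cells (-0.36, SE 0.11, edgeR adjusted p = 0.0241). The other calls in HKC-8, named after their values were seen, were FEM1C, which was induced, and LMNB1, which was repressed. FEM1C was induced in RCC4 (edgeR adjusted p = 0.000235) and HepG2 cells (edgeR adjusted p = 0.000282) too, and LMNB1 was called in neither.

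TFRC, the transferrin receptor and a cargo of the recycling route of ACAP1, rose from 407, 397 and 387 to 629, 653 and 685 CPM in RCC4 cells (0.73, SE 0.03, edgeR adjusted p = 3.15e-14). Its HepG2 value was 0.55 (SE 0.07, edgeR adjusted p = 3.12e-05). In HKC-8 cells it was at 0.46 (SE 0.16, edgeR adjusted p = 0.0684), and passed with the replicate block (edgeR adjusted p = 0.000405). BAI2, of the receptor family that binds C1q-like proteins, fell in RCC4 cells (-0.96, SE 0.12, edgeR adjusted p = 3.54e-07) from 8.97, 9.24 and 7.35 to 4.04, 4.72 and 4.37 CPM. BAI3, named after its values were seen, was at 0 in HKC-8 and HepG2 cells and at 0.910 ± 0.311 CPM (SD, n = 3) in normoxic RCC4 cells. LIN7B, of a scaffold complex that liprins join, rose in HepG2 (0.79, SE 0.23, edgeR adjusted p = 0.015), a call lost without hypoxia replicates 2 or 3 (edgeR adjusted p = 0.0577 and 0.0735). The channel TRPM8, also named after its values were seen, was at 4.02 ± 0.438 CPM in normoxic RCC4 cells (SD, n = 3) and below 0.1 CPM in the means of every HKC-8 and HepG2 group.

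Across the 18 samples, the genes whose log2 CPM followed each member most closely were found among 15306 genes, as a description. These samples share the split into normoxia and hypoxia and the 3 cell lines, which sets most of each correlation. For ANKRD37 the closest was PPFIA4 (r = 0.96), followed by RBPJ and PFKFB4. PPFIA4 was closest to RBPJ (r = 0.984), then ANKRD37 and ZNF292. SPAG4 was closest to ALDOA (r = 0.975), LOX and KIAA1715, and FAM115C to BNIP3 (r = 0.971), P4HA1 and EFNA3. TMEM45A followed ANGPTL4 (r = 0.963), SERTAD2 and HERC3, and ACAP1 followed HERC3 (r = 0.963), TBC1D22A and SERTAD2. C1QL1 had PTPRR (r = 0.994), MUC1 and POU5F1B, and FAM162A was followed by TMEM145 (r = 0.975) and LOC154761. ANKRD37 and PPFIA4 were the only members to appear on each other's lists.

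Replicates of 1 group gave a further description. Over the 18 samples, the deviations of log2 CPM from the group mean gave 28 pairwise correlations between members with a median of -0.07, a range of -0.58 to 0.64 and 12 values above 0. The median over all pairs of genes was 0.000222. C1QL1 and FAM162A gave the highest of the 28 (0.64), and PPFIA4 and FAM162A the lowest (-0.58).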

How the data were processed

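PolyA-selected RNA of 18 samples was sequenced from strand-marking ScriptSeq v2 libraries; the strand setting of the counting is not given in the sources used here. The deposited values are raw counts per gene: the authors trimmed reads with Trim Galore 0.3.3, aligned them to GRCh37 with TopHat 2.0.8b and Bowtie 1.0.0, handled alignments with SAMtools 0.1.19, discarded non-unique fragments, and counted on UCSC genes with HTSeq 0.5.4p3 (intersection-strict), per the submitters' processing notes and the methods. A read inside counted features of more than 1 gene stays uncounted. If the counting used strand, this holds only for genes on the same strand. Overlaps between genes were taken from whole gene spans, and the overlap of their exons was not examined.

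Groups came from the labels. R 4.3.3, edgeR 4.0.16 (filterByExpr, TMM, quasi-likelihood test, Benjamini-Hochberg adjustment, threshold 0.05) and, as an alternative, DESeq2 1.42.0 were used. Each line was fitted alone, and the 9 normoxic samples together. The SE is the log2 fold change divided by the square root of F. CPM are TMM-normalised over 18 samples. Count ratios use total counts and 95% Clopper-Pearson intervals, which cover counting error only. A count of 3 equals 0.0306 to 0.0733 CPM. Symbols of 21572 of 23106 rows matched GENCODE on GRCh37, which gave coordinates, neighbours and lengths. Figures used Python 3.11.15.

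Members and lists were chosen with earlier results of these data known. Named were all members, every listed gene called at 1.5-fold or more (at most 4 per list and line), the paralogue with the highest normoxic level in each family, and the 3 genes most correlated with each member, of which 1 is not reported here. In HKC-8 cells, samples with the same number deviated together from the group means (r = 0.176, 0.631 and 0.577). For normoxic replicate 1 the value hardly exceeded that with hypoxic replicate 2 (0.154). The numbers in the labels were taken as pairs only in the fits with the replicate block. The main HKC-8 fit has no block, so its calls ignore the pairs. Alternatives were another tool (DESeq2), other size factors (median of ratios), other filters (none, or 10 counts and above in every sample), a joint fit of the 18 samples, the replicate number as a block, each sample left out in turn, and CPM of the total count. The scripts were tested on simulated data.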

Additional observations from a re-analysis of the deposited data

Results flagged for a closer look

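Of the genes named here, 6 related genes had every hypoxic sample above every normoxic one in 1 line and below it in another, and these differences between lines were not tested. The share of all genes with this pattern is not given here. Only WDR5B met the call rule in both lines (edgeR adjusted p = 0.0245 and 0.00345). In the main fits edgeR adjusted p was 0.224 for BAI2, 0.172 for ACAP2 and 0.0618 for UFSP2 in HKC-8 cells. It was 0.081 for PPFIBP2 and 0.146 for LMNB1 in RCC4 cells. BAI2 stood at 2.94, 2.40 and 3.11 against 3.47, 3.26 and 3.65 CPM in HKC-8 cells and at 8.97, 9.24 and 7.35 against 4.04, 4.72 and 4.37 CPM in RCC4 cells, with log2 fold changes of 0.30 and -0.96 that lie 1.26 apart. PPFIBP2 rose in HepG2 cells (0.83) and was at -0.28 in RCC4 cells, where 5.31, 4.31 and 4.8 CPM stood against 4.25, 3.52 and 4.06 CPM, a gap of 1.11. ACAP2 rose in RCC4 cells (0.22) from 60.4, 56.9 and 54.7 to 64.8, 66.5 and 68.0 CPM and was at -0.18 in HKC-8 cells, with 106, 100 and 102 against 94.2, 80.4 and 97.2 CPM, a gap of 0.40; the HKC-8 fall passed with the replicate block (edgeR adjusted p = 0.0362). WDR5B, which overlaps FAM162A, stood at 11.1, 11.1 and 9.03 against 12, 12.5 and 12.4 CPM in RCC4 cells (0.24) and at 8.48, 8.26 and 8.26 against 6.38, 6.04 and 5.33 CPM in HepG2 cells (-0.49), a gap of 0.74. UFSP2, which overlaps ANKRD37, stood at 27.6, 24.5 and 29.3 against 31, 32 and 31.3 CPM in HepG2 cells (0.21) and at 43.7, 41.9 and 44.5 against 34, 31.8 and 39.7 CPM in HKC-8 cells (-0.30), a gap of 0.51. LMNB1, a partner of SPAG4, stood at 117, 117 and 109 against 119, 123 and 118 CPM in RCC4 cells (0.07) and at 266, 269 and 277 against 213, 218 and 234 CPM in HKC-8 cells (-0.28), a gap of 0.35. Oxygen and duration differ by the labels between RCC4 and the other lines, and cannot be told apart from the line.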

How the results depend on the processing

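All 271 alternative values of the members' hypoxic log2 fold changes were above 0 (1.43 to 9.97), and 2 of them, both of PPFIA4 in RCC4 cells, moved by more than the replicate SD. Over the fits with 1 sample left out, members called induced numbered 7 to 8 for HKC-8, 8 to 8 for RCC4 and 7 to 7 for HepG2. In the main fits 11.2%, 25.9% and 19.9% of all genes were called induced. The same samples chose the members, so nothing is read from these signs or counts. With at least 10 counts in every sample, fewer genes were tested and 3, 3 and 1 members were called between normoxic lines (RCC4 against HKC-8, HepG2 against HKC-8, HepG2 against RCC4) in place of 7, 6 and 3. Leaving out 1 sample gave 6 to 8, 6 to 6 and 3 to 4.

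HKC-8 list counts moved most, and the cause was not tested. Paralogues called there (1) were 3 with DESeq2, 2 with at least 10 counts in every sample, 2 in 1 fit of all 18 samples and 5 with the replicate block. With 1 sample left out they were 0 to 4: 4 without normoxia replicate 3, and in edgeR 0 without normoxia replicate 1, normoxia replicate 2, hypoxia replicate 1 or hypoxia replicate 3 (3, 2, 2 and 5 at an unadjusted p under 0.05). Neighbours (6) were 10 in 1 fit of all samples, 13 with the replicate block, and 3 to 7 with 1 sample left out, lowest without normoxia replicates 1 or 2 or hypoxia replicate 1. Partners (4) were 7 with DESeq2, 11 in 1 fit, 13 with the block, and 2 to 7 with 1 left out, lowest without normoxia replicate 1 or hypoxia replicate 1 and highest without hypoxia replicate 2. In RCC4 cells 1 fit of all samples gave 4 paralogues (7) and 10 neighbours (16). HepG2 neighbours (13) were 8 to 14 and partners (13) 8 to 18 with 1 sample left out, lowest without hypoxia replicates 1 and 2, respectively.

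The replicate block changed no member count. Same-numbered samples did not pair in RCC4 cells (r = -0.00647, 0.0239 and 0.0325). In HepG2 cells they gave 0.231, 0.0546 and 0.226, against -0.232 to 0.0535 between different numbers, so pairing there is unclear. For RCC4 and HepG2 the block gave 7 and 8 paralogues, 17 and 13 neighbours and 19 and 15 partners. Signs turned for 3 values near 0 or with wide spread. These were ADORA1 in HKC-8 (-0.12 to 0.23 over these fits, with -0.06, -0.12 and -0.11 without normoxia replicate 1, normoxia replicate 2 and hypoxia replicate 3), CBLN3 in RCC4 (-0.61 to 0.012, the latter without normoxia replicate 3), and SPAG4 between normoxic HepG2 and RCC4 (-0.37 to 0.095, with 0.01 without RCC4 replicate 2 and 0.095 without HepG2 replicate 3). By adjusted p alone, ANKRD37 between normoxic HepG2 and RCC4 dropped out without RCC4 replicates 1 or 3 or HepG2 replicate 2, and SPAG4 between HepG2 and HKC-8 without replicate 2 of either line. Depth limits PPFIA4, ACAP1, FAM115C and C1QL1 where a group holds few counts.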
